A study of Mus musculus with 12 samples.

Results

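The tumour cells of Clone EM1 were described here, across all genes measured, beside the tumour cells of 5 other tumours of the same cell line. The members were the cells of the Clone EM1 Total library that the authors' annotation calls tumour cells, 2916 of the 6709 cells of that library (43.5%). The 6 Total libraries held 60657 cells, of which 19935 had that annotation. After 91 of the 2916 cells (3.12%) had been called doublets, that is, droplets holding more than 1 cell, 2825 cells remained. Every tumour came from 4T1, a mouse mammary carcinoma line that grows in immunocompetent BALB/c mice. The parental 4T1 line and its clones, named E (epithelial), EM1 to EM3 (intermediate) and M (mesenchymal), were each grown in the mammary fat pad of female BALB/c hosts aged 9 to 11 weeks, and the labels name no transgene or drug. Every clone was grown from 1 cell and stands only for itself, and each group held 1 tumour. A Total library holds the whole dissociated tumour, with its immune and stromal cells.

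Epithelial cells are held together by claudins, cadherins and desmosomes and carry keratin filaments, whereas mesenchymal cells carry vimentin, deposit fibronectin and collagens, and migrate singly. In the epithelial-mesenchymal transition, carcinoma cells move along this range, and cells in hybrid states carry features of both ends. The 4T1 line is known for spreading to distant organs and for secreting factors that draw granulocytes and macrophages into the tumour.

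No test between tumours was possible with 1 tumour per group. Differences are given as values, and intervals, at the 95% level, cover counting error only. A level is given in CPM, the UMI count of a gene over the summed UMI count of the tumour cells of 1 tumour, times 1e+06. A UMI is a unique molecular identifier that marks 1 captured RNA molecule. A difference is a log2 ratio of CPM + 10, so it understates the change of genes with low counts. A gene was called higher or lower at a ratio of at least 2-fold. Shares of cells with a UMI were counted after thinning each cell to 2000 UMIs, and a cell with no UMI at that depth need not lack the RNA. Cells with fewer UMIs than the thinning depth were left out. At 2000 UMIs, 2723 of 2825 EM1 tumour cells and 690 of 751 E tumour cells remained.

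The 2825 EM1 tumour cells held 26672731 UMIs, with a median of 9670 UMIs and 3943 genes per cell. The other tumours had medians of 6441 (E) to 15293 UMIs (EM3) per tumour cell, and 751 (E) to 5849 (parental) tumour cells. The EM1 Total library shared 906 droplet barcodes with the EM2 Total library (13.5% of its cells), and 850 and 818 with the CD45-enriched libraries of EM1 and EM2. It shared between 46 and 120 with each of the other 8 libraries. Other libraries shared barcodes too, and why libraries share them is not given in the sources used here. A barcode found in no other library was held by 426 of 751 tumour cells in E, 2039 of 3232 in EM2 and 1081 of 1923 in EM3. Such a barcode was held by 3661 of 4564 in M and 4653 of 5849 in the parental tumour. Of the EM1 tumour cells, 1704 had a barcode found in no other library, and over such cells of every tumour 98 genes were higher and 24 lower than the median and 20 lay above all other tumours, where all cells gave 93, 22 and 18. Among the EM1 tumour cells, 3.26% held a UMI of Ptprc, which encodes the leukocyte antigen CD45. The 15 macrophage markers summed to 261.5 CPM in EM1 tumour cells, the lowest of the 6 tumours, against 349 (EM2) to 1598 (E).

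EM1 tumour cells fitted their label. Krt8 and Krt18, the keratin pair of simple epithelia, stood at 2510 and 1049 CPM, against 84.3 and 35.4 CPM in macrophages of the same library. At 2000 UMIs per cell, 93.5% of the EM1 tumour cells held a Krt8 UMI and 77.0% a Krt18 UMI. Serpine2, a secreted inhibitor of thrombin and plasminogen activators, stood at 655 CPM in EM1 tumour cells. It stood at 693 in the parental tumour, 801 in M, 895 in EM3 and 1067 in EM2, but at 3.38 in E, so its level set EM1 apart from E and not from the others.

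EM1 tumour cells held a mixed set of state genes: vimentin at the level of the more mesenchymal clones, and claudins above every tumour but E. Vim, the vimentin filament, stood at 14030 CPM in EM1, between 13010 and 19040 in the parental, M, EM2 and EM3 tumours and at 4433 in E. Fn1, which encodes fibronectin, stood at 12650 CPM in EM1, 14090 in E and 5013 in M, the lowest. Among the genes measured, Vim and Fn1 were also the most abundant in EM1 tumour cells, followed by Spp1 (osteopontin) at 6355 CPM and the translation factor Eef1a1 at 5506 CPM. Ier3, Lmna, Igfbp4, Ptgs2, Cebpb and S100a10 completed the 10 highest, at 4681 to 2729 CPM. All 10 lay within 2-fold of the median of the other tumours, beside 1.84% higher and 0.435% lower of all genes tested.

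Tight-junction claudins were among the epithelial genes that stood higher in EM1 than in EM2, EM3 and M. Cldn4 stood at 581 CPM in EM1 (95% interval 572 to 590), 4716 in E, 294 in the parental tumour, 104 in M, 91.3 in EM2 and 12.9 in EM3. Cldn3 stood at 81.8 CPM in EM1, 392 in E, 45.9 in the parental tumour, 7.19 in EM2, 1.31 in M and 0.525 in EM3. Cldn7 stood at 80.3 CPM in EM1, 445 in E, 52.6 in the parental tumour, 13.8 in EM2, 4.77 in M and 3.46 in EM3. For all 3 genes EM1 ranked second, below E, which held 4.79 to 8.12 times as much. Against the median of the other 5 tumours the log2 ratios were 2.38 for Cldn4, 2.42 for Cldn3 and 1.93 for Cldn7, and they turned to -0.84, -0.11 and -0.34 when the mean of the other 5, which includes E, was used. Cldn4 (chr5:134945119-134946934) and Cldn3 (chr5:134986214-134987472) lie near each other on chromosome 5 in build GRCm38.

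Of 5052 genes at 50 CPM or more in EM1 or in the median of the other tumours, 93 (1.84%) were at least 2-fold higher and 22 (0.435%) at least 2-fold lower in EM1 than that median. With the mean in place of the median, 67 were higher and 40 lower. The median log2 ratio over all 5052 genes was 0.01. Over 5822 genes at 50 CPM or more in any tumour, EM1 held the highest level of the 6 tumours for 620 (10.65%). All 620 are among the 5052 genes, the set from which list members were counted. The share to set beside such counts for a list is thus 620 of 5052. Of the 40 epithelial genes listed, 21 reached 50 CPM, and 5 of them were higher and 1 was lower, with a median log2 ratio of 0.16. Among the 5 were the 3 claudins and Dsg2, a desmosomal cadherin, at 51.4 CPM against 5.34. The lower gene was Krt19, a keratin of luminal epithelium, at 22.98 against 57.0 CPM. Cldn3, Cldn7 and Dsg2 reached 50 CPM only through EM1, as did 58 of the 93 higher genes and 315 of the 5052. A gene that enters this way had to lie above the median, so counts and medians over listed genes are descriptions and not support.

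**Figure D1:**
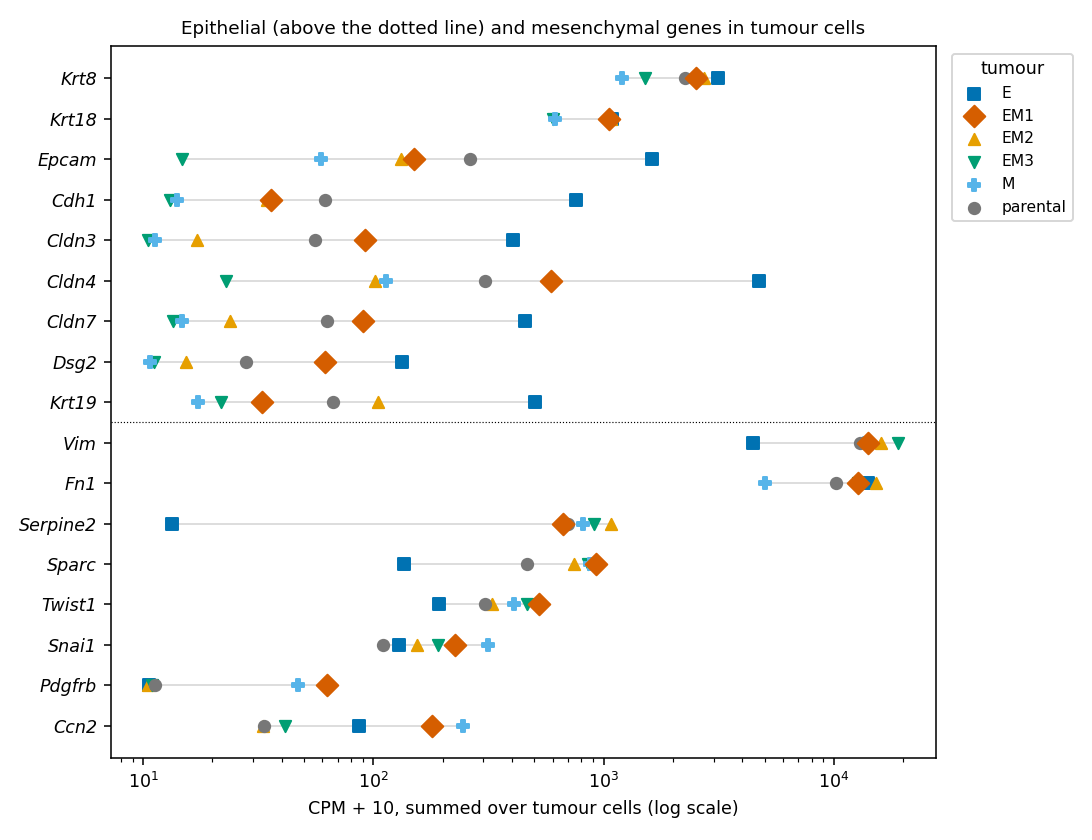
Levels of 9 epithelial genes (above the dotted line) and 8 mesenchymal genes in the tumour cells of the 6 tumours, as CPM + 10 on a log axis, with 1 point per tumour and no error bars. The EM1 diamonds lie within the range of the other tumours for Krt8, Krt18 and Vim, with E far lower for Vim, and between E and the remaining tumours for Cldn3, Cldn4, Cldn7 and Dsg2.

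Epcam and E-cadherin lay near their EM2 levels in EM1, unlike the claudins. Epcam, an epithelial adhesion protein, stood at 140.4 CPM in EM1, 121 in EM2 and 253 in the parental tumour, and at 1607 in E. Cdh1, which encodes E-cadherin, stood at 25.9 CPM in EM1, 24.5 in EM2 and 51.9 in the parental tumour, against 749 in E. Esrp1, a splicing regulator of epithelial cells, stood at 17.8 CPM in EM1, 33.4 in the parental tumour and 244 in E, and at 1.36 or less in EM2, EM3 and M. Thus EM1 held Cldn4 at 6.36 times the EM2 level on the CPM scale with nearly the same Epcam and Cdh1.

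Claudin transcripts were found in more cells of EM1 than of EM2, EM3, M or the parental tumour, and unevenly. At 2000 UMIs per cell, 53.1% of EM1 tumour cells held a UMI of Cldn3, Cldn4 or Cldn7, against 94.1% in E, 31.8% in the parental tumour, 10.8% in M, 5.92% in EM2 and 1.96% in EM3. Cldn4 was found in 41.4% of EM1 cells, Cldn3 in 14.1% and Cldn7 in 13.4%. Of the Cldn4 UMIs, 61.1% lay in the 10% of EM1 cells with the most. In EM1, 22.5% of cells held both a claudin UMI and a Serpine2 UMI, and the product of both shares was 24.3%. Cells of EM1 with a keratin UMI (Krt8 or Krt18) and a Vim UMI made up 96.7%. As a measure of free RNA, at 1000 UMIs per cell 29.6% of EM1 tumour cells and 5.75% of T and NK cells of the same library held a Cldn4 UMI. Those cells had median depths of 9718.5 and 1376 UMIs before thinning.

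Of 45 mesenchymal genes listed, 26 reached 50 CPM, 4 were higher (beside 1.84% of all genes) and none was lower than the median of the others, with a median log2 ratio of 0.31, and EM1 held the highest level of the 6 tumours for 10 genes. The 4 were Ccn1 and Ccn2, matrix-associated proteins of the CCN family, Itgb3, an integrin subunit, and Pdgfrb, the PDGF receptor beta, and 3 of the 4 reached 50 CPM only through EM1. Pdgfrb stood at 52.7 CPM in EM1 and 37.2 in M, but at 0.508 to 1.22 in the remaining 4 tumours. Twist1, a transcription factor that drives the transition, stood at 513 CPM in EM1, the highest level, against 182.5 (E) to 455 (EM3). Snai1 and Zeb2, other such factors, were highest elsewhere: Snai1 in M at 303.5 CPM (216.6 in EM1) and Zeb2 in EM3 at 260.3 (178.3 in EM1). Sparc, a matrix glycoprotein, stood at 917 CPM in EM1 and 126 in E. Snai2 and Cdh2, both textbook mesenchymal genes, were at 0.0375 and 0.0750 CPM in EM1, below the 0.112 CPM that 3 counts make in these cells. Both were near 0 in every other tumour too, at no more than 0.7954 and 0.3977 CPM (both in E).

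A group of 18 genes stood above every other tumour at once. Of 5822 genes at 50 CPM or more in any tumour, 18 (0.309%) were at least 2-fold above the highest of the other 5 and 0 (0%) were at least 2-fold below the lowest. Without a filter on low levels, 25 genes lay above and 2 below. By the same rule E had 140 genes above and 46 below, M 24 and 19, EM2 4 and 3, EM3 1 and 12, and the parental tumour none in either direction. Without E as a comparator the EM1 count was 30. The 18 genes encode acute-phase and innate immune proteins (Saa2, Saa3, Lbp, C4b, Cxcl5), matrix proteins and a matrix protease (Bgn, Eln, Adamts4), enzymes of redox and xenobiotic metabolism (Sod3, Gsta4, Cyp1b1), and others (Adgrf5, Tnfrsf21, Rbpms, Hspb1, Rgl1, Atp1b1, Egln3).

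The serum amyloid genes Saa3 and Saa2 had the largest ratios. Saa3, a serum amyloid A protein induced in inflammation, stood at 211 CPM in EM1 (206 to 217), 22.4 in M, 21.5 in EM2, 15.8 in the parental tumour, 15.3 in E and 5.25 in EM3. Saa2 stood at 66.4 CPM in EM1 and at 0.105 to 1.44 in the others. The log2 ratios over the highest other tumour were 2.77 and 2.74. Saa1, its near-identical neighbour, stood at 48.3 CPM in EM1 and at no more than 2.15 elsewhere, and how reads were divided between Saa1 and Saa2 is uncertain. The 3 genes lie near each other on chromosome 7 of GRCm38: Saa3 at chr7:46711998-46715700, Saa1 at chr7:46740497-46742980 and Saa2 at chr7:46751790-46754313.

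Lbp, the lipopolysaccharide-binding protein of the acute phase, stood at 162 CPM in EM1, 34.7 in M and 1.44 to 4.57 in the other 4 tumours. C4b, complement component 4, stood at 127 CPM in EM1 and 7.72 to 24.1 elsewhere. Cxcl5, a chemokine that attracts neutrophils, stood at 228 CPM in EM1 and 22.7 (EM3) to 88.7 (parental) elsewhere. Lcn2, the iron-scavenging lipocalin of inflamed epithelium, was highest in EM1 too, at 1135 CPM against 306 (EM2) to 794 (E), a log2 ratio of 1.22 over the median.

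Among the other genes of the 18, Bgn, the proteoglycan biglycan, stood at 160.5 CPM in EM1 (156 to 165) and at 4.13 to 17.9 elsewhere. Eln, elastin, stood at 81.9 CPM in EM1 and at 0.77 to 5.96 elsewhere. Sod3, the extracellular superoxide dismutase, stood at 251 CPM in EM1, 85.5 in EM2, 71.4 in EM3, 3.38 in E, 6.08 in the parental tumour and 21.1 in M. Egln3, a prolyl hydroxylase of the hypoxia response, stood at 345 CPM in EM1 and 70.3 to 158 elsewhere. The other 26 glycolysis and hypoxia genes that reached 50 CPM were neither higher nor lower. Of all genes, only 1.84% were higher and 0.435% lower, so that count does not set the list apart. Mgp, an inhibitor of calcification that is not among the 18, was at 2294 CPM in EM1 and next highest in M, at 1243 CPM, against 181.5 to 699 in the other 4.

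**Figure D2:**
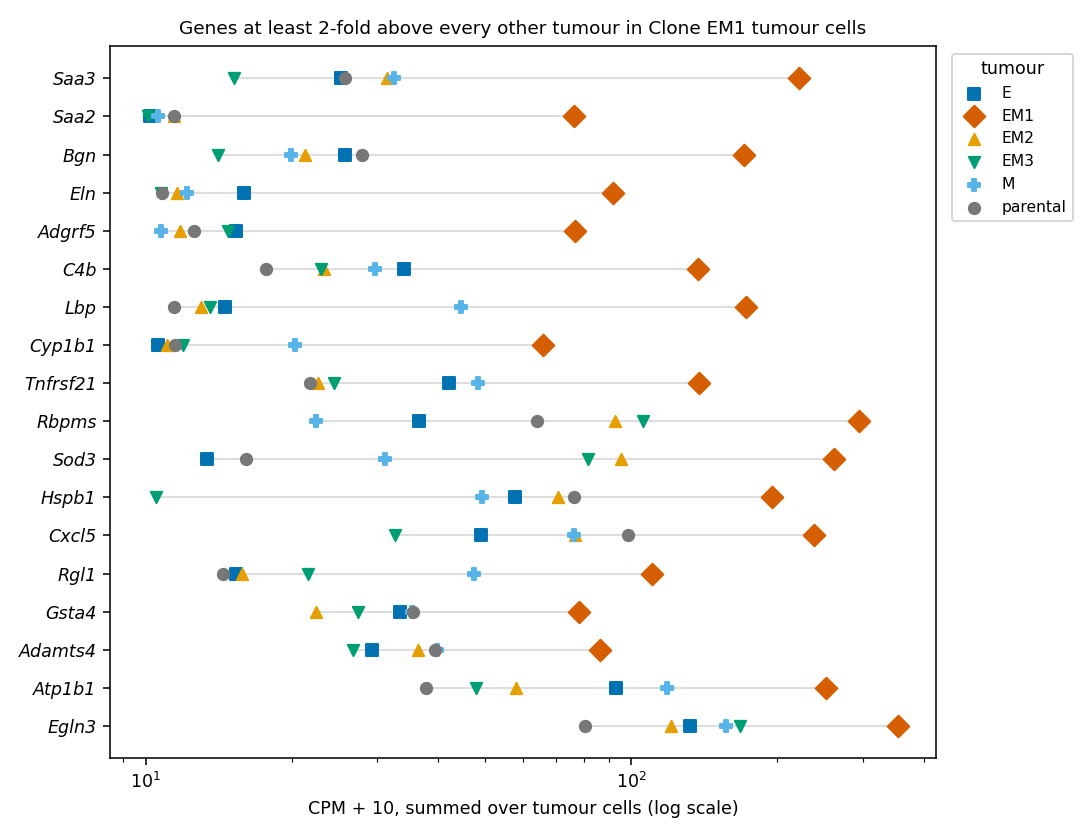
Levels of the 18 genes that lay at least 2-fold above every other tumour in EM1 tumour cells, as CPM + 10 on a log axis, 1 point per tumour and no error bars. The EM1 diamond stands apart to the right in every row, by the widest margin for Saa3 (log2 ratio 2.77 over the highest other tumour) and by the narrowest for Egln3 (1.08).

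The 18 genes were carried by unequal shares of the EM1 tumour cells. At 2000 UMIs per cell, an Egln3 UMI was found in 41.4% of cells, a Rbpms UMI in 40.7% and an Atp1b1 UMI in 32.5%. Saa2 was found in 3.78% of cells (95% interval 3.10 to 4.57), Eln in 4.70% and Saa3 in 7.79%. The remaining 12 genes lay between 8.81% (Cyp1b1) and 26.8% (Sod3). Saa2, Eln and Saa3, which had 3 of the 4 largest ratios, were thus the genes found in the fewest EM1 tumour cells.

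**Figure D3:**
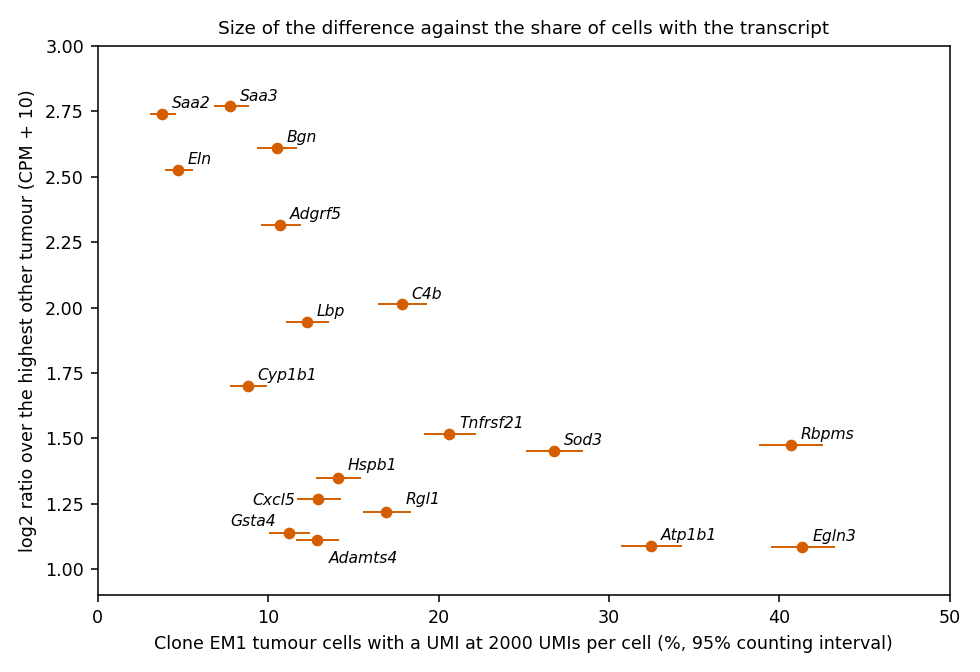
For each of the 18 genes, the share of EM1 tumour cells with a UMI at 2000 UMIs per cell (horizontal axis, bars are 95% Clopper-Pearson intervals of counting error) against the log2 ratio of EM1 over the highest other tumour (vertical axis). Saa2, Eln, Saa3 and Bgn combine high ratios with 3.78% to 10.5% of cells, while Rbpms and Egln3 combine lower ratios with over 40% of cells. Gsta4 and Adamts4 have low ratios (1.14 and 1.11) at shares not far above that of Bgn. Shares also depend on level, which was 345 CPM for Egln3 and 66.4 CPM for Saa2.

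Spread among cells was measured as the coefficient of variation beyond counting error. Of 4814 genes with a mean of at least 0.1 UMI per thinned cell, 333 had a coefficient of 1 or more in EM1, against 254 (EM2) to 306 (M) in the other tumours except E, which had 805 among 690 cells. The 15 genes of largest spread in EM1 were the immunoglobulin genes Ighg1 and Igkc, the granulocyte calprotectin genes S100a8 and S100a9, and then Saa2, Eln, Saa1, Saa3, Cxcl9, Il6, Cxcl10, Hspb1, Cxcl5, Ccn2 and Bgn. The first 4 are products of plasma cells and granulocytes, and their part in these cells was not tested. Coefficients for the others ran from 7.10 (Saa2) to 3.88 (Bgn).

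Cells with a Bgn UMI shared other transcripts. At 2000 UMIs, 286 EM1 tumour cells held a Bgn UMI and 2437 did not. Eln was found in 28.0% of the former and 1.97% of the latter. Il6, an inflammatory cytokine, was found in 25.5% against 5.87%, Pdgfrb in 25.9% against 6.44%, and Lbp in 33.6% against 9.77%. Thbs1, which encodes the matrix protein thrombospondin 1, was found in 77.3% against 53.8%, and Mgp in 88.5% against 66.2%. Krt8 did not differ as much, at 91.6% against 93.8%, and Epcam was found in fewer of the Bgn cells, 11.9% against 20.6%. These shares describe cells of 1 library.

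Fibroblasts are the usual source of Bgn and Eln, and the 52 fibroblasts of the EM1 library held 5063 CPM of Bgn and 64450 CPM of Col1a1, the main fibroblast collagen. EM1 tumour cells held 28.3 CPM of Col1a1, against 21.8 (EM3) to 106 (E) in the other tumours. The ratio of Bgn to Col1a1 was 0.0786 in fibroblasts, 0.525 in T and NK cells and 5.66 in tumour cells. Col1a1 was found in 5.59% of Bgn cells and 4.60% of the rest, while Dcn, the fibroblast proteoglycan decorin, was found in 13.6% against 1.64%. Lum, Rgs5 and Des, which mark fibroblasts and pericytes, stood at 0.2999, 0.225 and 0.188 CPM in EM1 tumour cells. Of other members of the fibroblast list, Dcn was highest in M at 35.5 CPM, followed by EM1 at 22.01, and stood at 1.78 to 10.3 elsewhere, while Pi16 was highest in EM1 at 14.96 CPM against 3.45 to 6.17. Pdgfrb, also on that list, was highest in EM1, and the part of fibroblast RNA in these values was not tested. Cells with no UMI of 5 fibroblast genes (Col1a1, Col1a2, Col3a1, Dcn and Lum) were 1879 of 2825 EM1 tumour cells. The other tumours kept 211 of 751 (E), 790 of 3232 (EM2), 958 of 1923 (EM3), 1152 of 4564 (M) and 1247 of 5849 (parental). With Dcn among the 5, cells with a Dcn UMI were left out, Bgn cells included. Over the cells kept, Bgn stood at 84.0 CPM with a log2 ratio over the median of 2.18 in place of 2.999. Eln stood at 23.6 CPM with 1.495 in place of 2.99. The part of fibroblast RNA in these falls was not tested. The 15 fibroblast markers summed to 328 CPM in EM1 tumour cells and to 231 to 391 in the others. Pdgfra alone made 171.7 CPM of the EM1 sum and stood at 35.59 (E) to 195.2 (M) in the others. The sum thus follows that gene and is no measure of fibroblast RNA by itself.

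**Figure D4:**
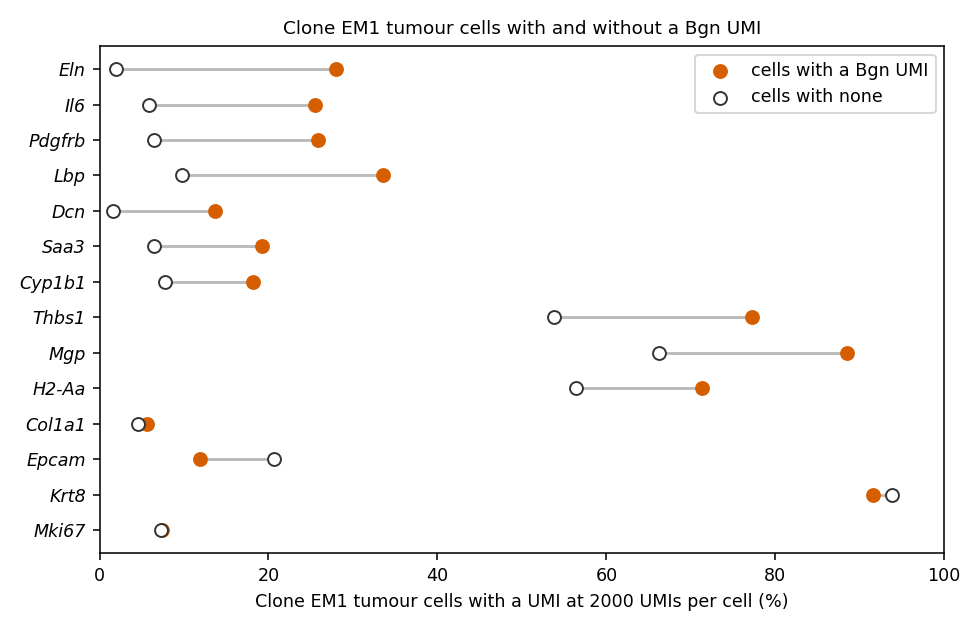
Share of EM1 tumour cells with a UMI of 14 genes at 2000 UMIs per cell, for the 286 cells with a Bgn UMI (filled) and the 2437 cells with none (open), without error bars. Eln, Il6, Pdgfrb and Lbp lie far to the right in Bgn cells, while Col1a1, Krt8 and Mki67 nearly coincide.

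Cells with a Saa3 UMI shared other transcripts again. Among 212 such cells, Bgn was found in 25.9% against 9.20% of the rest, so both sets overlap. Saa2 was found in 29.7% of Saa3 cells against 1.59% of the other 2511, Saa1 in 23.1% against 1.55%, Cxcl5 in 34.9% against 11.1% and Lcn2 in 84.4% against 52.9%. Over the 18 genes, the highest of 153 pairwise Spearman correlations across the 2723 cells, which share a library and its depth, were 0.41 for Saa3 with Saa2 and 0.40 for Bgn with Eln. The median over the pairs was 0.07, and such weak values in sparse counts are no finding. For Saa3 the fibroblasts of the library held 6236 CPM and granulocytes 569 CPM, whereas Saa2 had no UMI in fibroblasts and 7.39 CPM in granulocytes. At 1000 UMIs per cell, Saa3 was found in 5.82% of EM1 tumour cells, 3.34% of T and NK cells and 13.8% of granulocytes. The 547 granulocytes had a median of 780 UMIs and the 1512 T and NK cells one of 1139. Most granulocytes therefore fell below 1000 UMIs and were left out of that share.

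MHC class II genes stood well above the median of the other tumours in EM1, though close to their levels in E. Class II molecules present peptides to CD4 T cells and are made by macrophages, dendritic cells and B cells, and by many other cells under interferon gamma. Cd74, the invariant chain that guards the peptide groove, stood at 1386 CPM in EM1 (1372 to 1400), 1114 in E, 654 in EM2, 537 in EM3, 79.0 in the parental tumour and 70.1 in M. H2-Aa, an alpha chain, stood at 699.6 CPM in EM1, 594 in E, 278 in EM2, 195 in EM3, 30.4 in the parental tumour and 38.4 in M. EM1 and E thus lay close together, EM2 and EM3 in the middle, and M and the parental tumour far below.

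Of the 10 class II genes listed, 6 reached 50 CPM and 5 were at least 2-fold above the median, beside 1.84% of all genes. The median log2 ratio was 1.61, beside 0.01 over all genes. EM1 held the highest level of the 6 tumours for all 6. The sixth was H2-DMa, which loads peptides, with a log2 ratio of 0.91. H2-DMa and H2-DMb1 reached 50 CPM only through EM1. None of the 6 lay 2-fold above E, where H2-Eb1 had a log2 ratio of 0.19 and H2-Ab1 of 0.51. Ciita, the master regulator of class II genes, stood at 12.8 CPM in EM1, 15.7 in E, 11.2 in EM2, 3.78 in EM3, 1.04 in the parental tumour and 1.57 in M, and did not reach 50 CPM in any of them. Ctss, a protease that trims the invariant chain, was also below 50 CPM in EM1, at 15.4, the lowest of the 6 tumours, where E held 165. H2-Ab1, H2-Aa and H2-Eb1 lie together on chromosome 17 of GRCm38, from H2-Ab1 at chr17:34257689-34269419 through H2-Aa at chr17:34282744-34287823 to H2-Eb1 at chr17:34305867-34316674.

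Promoters of the class II genes carry a shared element, the Y box, and 3 of the genes that stood high together are shown with it. Each is the 150 bases before the RefSeq start of the gene, 5′ to 3′ on the strand of the gene, in build GRCm38.p6, with capitals for TGATTGG. The first capital lies 50 bases before the start of H2-Aa (chr17:34287824-34287973, minus strand), 61 before H2-Eb1 (chr17:34305717-34305866, plus strand) and 63 before H2-DMb1 (chr17:34153041-34153190, plus strand). GENCODE starts H2-DMb1 earlier, at chr17:34153072, inside this window. By that start its capitals lie within the gene.
H2-Aa: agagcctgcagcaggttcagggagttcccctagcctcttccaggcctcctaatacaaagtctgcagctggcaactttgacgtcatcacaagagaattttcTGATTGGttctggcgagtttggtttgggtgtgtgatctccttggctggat
H2-Eb1: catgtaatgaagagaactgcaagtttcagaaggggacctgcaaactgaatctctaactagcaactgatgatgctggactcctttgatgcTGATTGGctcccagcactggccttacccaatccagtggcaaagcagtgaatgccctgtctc
H2-DMb1: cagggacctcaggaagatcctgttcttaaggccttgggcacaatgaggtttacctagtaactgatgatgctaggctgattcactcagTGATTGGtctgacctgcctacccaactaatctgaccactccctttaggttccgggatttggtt
TGATTGG or its reverse complement CCAATCA was found in 1877 of 32851 such windows (5.71%), or for 1810 of 27025 genes (6.7%). Of the 10 class II genes, 7 had a window and 5 of them held the motif, which is a description of letters and not of binding. The other holders were H2-Oa and H2-Ob, at 0.862 and 0.675 CPM in EM1, and the windows of H2-DMa, at 68.1 CPM, and Ctss did not hold it.

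Class II transcripts were spread over most EM1 tumour cells. At 2000 UMIs per cell, Cd74 was found in 79.0% and H2-Aa in 58.0% of cells, and the listed genes summed to a median of 5 UMIs per cell, with a 10th percentile of 1 and a 90th of 15. At least 5 class II UMIs were found in 50.8% of EM1 cells, 0.833% of parental cells, 0.531% of M cells, 15.3% of EM3 cells, 18.4% of EM2 cells and 46.7% of E cells. No class II UMI was found in 9.88% of EM1 cells and in 74.8% of M cells. Unlike the Saa genes, then, class II transcripts were held by most cells.

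**Figure D5:**
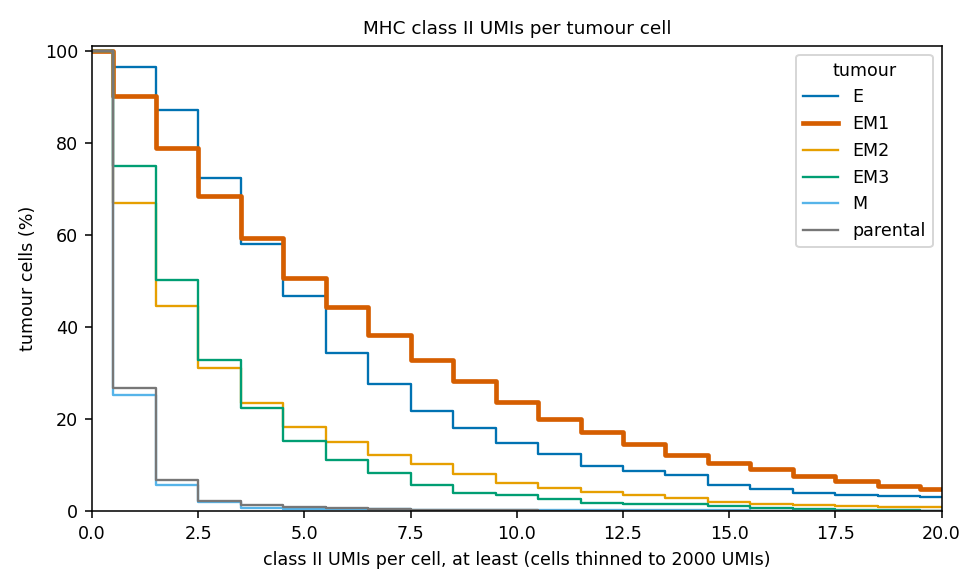
Share of tumour cells (vertical axis) that hold at least the number of class II UMIs on the horizontal axis, at 2000 UMIs per cell, 1 line per tumour and no error bars. The EM1 line lies above all others from 4 UMIs on, while the lines of M and the parental tumour fall to near 0 after 2 UMIs.

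Macrophages of the EM1 library held 9287 CPM of H2-Aa, and RNA set free from such cells can reach any droplet. H2-Aa stood at 343.5 CPM in T and NK cells, 502.5 in granulocytes and 211 in fibroblasts of the EM1 library, below the 699.6 of its tumour cells. In the other libraries T and NK cells lay above tumour cells: 754 CPM against 594 in E, 158 against 30.4 in the parental tumour, 212 against 38.4 in M, 678 against 195 in EM3 and 489.5 against 278 in EM2. C1qa, a complement gene of macrophages, stood at 15.4 CPM in EM1 tumour cells, the lowest of the 6 tumours (up to 97.6 in E), and at 97.3 in T and NK cells of EM1. The ratio of H2-Aa to C1qa was 45.4 in EM1 tumour cells, 1.53 in macrophages, 3.53 in T and NK cells, 67.5 in B cells and 369 in the 55 dendritic cells. At 1000 UMIs, 40.4% of tumour cells and 26.8% of T and NK cells held an H2-Aa UMI, and 1.82% and 9.20% a C1qa UMI, at the median depths given for Cldn4.

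Class II levels were also taken over cells chosen by other transcripts. In the 1551 EM1 tumour cells with no UMI of 9 macrophage genes, which still held 86.9 CPM of Apoe and 49.1 CPM of Cd14 (103.5 and 55.8 over all cells), H2-Aa stood at 696 CPM and Cd74 at 1405 CPM, with log2 ratios over the median of 1.73 and 1.49. Only 33 cells of EM3 and 77 of E met that condition. Some B and plasma cell transcripts were also highest in EM1 and E. Igkc, an immunoglobulin light chain, stood at 45.2 CPM in EM1 and 48.5 in E, against 0.350 to 4.75 elsewhere, and Jchain at 5.29 and 5.57 against 0.210 to 0.834. Cd79a and Cd79b, parts of the B cell receptor, did not follow this order: Cd79a was highest in M at 30.1 CPM, with 18.7 in E and 10.1 in EM1, and Cd79b was highest in E at 9.15 CPM, with 4.12 in M and 2.06 in EM1. The 10 B and plasma cell markers, none of them at 0, summed to 68.9 CPM in EM1 and to between 12 (EM3) and 100.0 (E) in the other tumours. In the 1587 EM1 tumour cells with no UMI of 11 B and plasma cell genes, H2-Aa stood at 701.0 CPM and Cd74 at 1387 CPM, with log2 ratios over the median of 1.77 and 1.30. Across EM1 tumour cells, class II UMIs had a Spearman correlation of 0.32 with class I UMIs, 0.25 with interferon-induced UMIs and 0.02 with macrophage UMIs. These are 2723 thinned cells of 1 library that share its free RNA. In the same order, EM2 had 0.378, 0.289 and 0.0786, E 0.246, 0.185 and 0.191, and EM3 0.25, 0.185 and 0.188. M had 0.0195, 0.0295 and 0.123, and the parental tumour 0.0215, 0.0174 and 0.128. Macrophage UMIs are sparse at this depth, so their value in EM1 cannot be set beside the class I value.

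Other genes induced by interferon gamma were higher in EM1 than the median as well, and Igtp, Irgm1 and Cxcl10 stood slightly higher still in EM2. Of 26 listed, 12 reached 50 CPM, 6 were higher and none lower than the median, with a median log2 ratio of 1.00, beside 1.84% of all genes higher. Of the 12, 8 entered only through EM1, and they include 5 of the 6 that were higher, so this count is no support for a rise of the list. Among them were the GTPases Igtp, Iigp1 and Irgm1 and the chemokines Cxcl9 and Cxcl10, which attract T cells. Cxcl10 stood at 98.8 CPM in EM1, 104 in EM2 and 24.0 to 46.1 elsewhere. Cxcl9 stood at 60.2 CPM in EM1, 26.6 in EM2 and 3.31 to 10.1 elsewhere, and 5.73% of EM1 cells held a Cxcl9 UMI. Of 22 MHC class I genes, 1 was 2-fold higher (H2-Q7), beside 1.84% of all genes, and 21 passed in neither direction, with a median log2 ratio of 0.51.

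Secreted factors moved in both directions. Of 24 cytokine and chemokine genes at 50 CPM or more, 10 were higher and 1 lower than the median, beside 1.84% and 0.435% of all genes, with a median log2 ratio of 0.30. Of those 10, 6 reached 50 CPM only through EM1, so their direction was fixed by that filter. Besides those above, the higher ones included Ccl2, Cx3cl1, Tslp and Il6. Over tumour cells with no UMI of 5 fibroblast genes, Il6 stood at 54.6 CPM in EM1, with a log2 ratio of 0.44 in place of 1.03. That choice also leaves out Bgn cells with a Dcn UMI, and the source of the fall was not tested. Ccl2 and Cx3cl1 stayed past 2-fold there, at 2.03 and 1.15. Ccl2, which attracts monocytes, stood at 72.3 CPM in EM1, 196 in the parental tumour and 107 in M, but at 3.80 to 10.3 in E, EM2 and EM3. Tslp, a cytokine of barrier epithelia, stood at 512 CPM in EM1, 628 in M and 464 in EM3, and at 87.3 to 125.5 in the others. Cxcl2, a neutrophil chemokine, went the other way, at 138 CPM in EM1 against 199 (M) to 954 (parental), the lowest of the 6. Csf3, the granulocyte colony-stimulating factor, stood at 2300 CPM in EM1, with a log2 ratio of 0.08.

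Some matrix genes and proteases were higher in EM1 and most passed in neither direction. Of 21 matrix genes at 50 CPM or more, 5 were higher (among them Col4a1, Col6a2, Thbs1 and Bgn), beside 1.84% of all genes, none was lower, and EM1 ranked highest of the 6 tumours for 11, with a median log2 ratio of 0.57. Of those 5, Bgn reached 50 CPM only through EM1. Thbs1 stood at 997 CPM in EM1 and 152 (EM2) to 569 (M) elsewhere. Col6a2, a chain of collagen VI, stood at 252 CPM against 24.5 to 147. Of 23 proteases and inhibitors, Mmp3, Mmp12, Mmp13 and Adamts4 were higher and Adam8 was lower, beside 1.84% and 0.435% of all genes. Of the 4 higher, 2 (Mmp12 and Adamts4) reached 50 CPM only through EM1, so they had to lie above the median. Mmp13, a collagenase, stood at 307 CPM in EM1, 182 in E, 111 in the parental tumour, 63.2 in EM2, 8.77 in M and 6.89 in EM3.

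Some genes of mitosis were lower in EM1 than the median of the other tumours. Of 8 mitosis genes at 50 CPM or more, 3 were lower (Cdk1, Ube2c and Top2a), beside 0.435% of all genes, and none higher, with a median log2 ratio of -0.80. Cdk1, the kinase that starts mitosis, stood at 38.6 CPM in EM1, 46.5 in E, 81.8 in EM3, 111 in M, 129 in the parental tumour and 164 in EM2. At 2000 UMIs per cell, 9.29% of EM1 cells held 5 or more UMIs of the 38 mitosis genes, against 7.39% in E, 12.7% in EM3, 16.04% in M, 16.5% in the parental tumour and 21.9% in EM2. EM1 and E thus had the smallest shares of such cells and EM2 the largest. Of 16 DNA replication genes, none passed 2-fold, beside 1.84% higher and 0.435% lower of all genes, and the median log2 ratio was -0.21.

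Several lists held no gene past 2-fold. Beside them, 1.84% of all genes were higher and 0.435% lower, so lists of this size can hold none without standing apart. These were sterol and fatty acid synthesis (17 genes at 50 CPM or more), the unfolded protein response (27), p53 targets (11), Wnt signalling (13), Notch signalling (11), respiration (32) and stem and progenitor regulators (12), with median log2 ratios between -0.12 and 0.13. The respiration list does not include mt-Nd6, a mitochondrially encoded subunit of complex I, which was past 2-fold lower at 83.6 CPM in EM1 against a median of 185.5. The mitochondrially encoded members of the list all lay below the median too, with log2 ratios from -0.69 to -0.16. The median mitochondrial percent of tumour cells was 0.27 in EM1, 0.25 in M and 0.39 (EM3) to 1.77 (E) in the others, and its part was not tested. Of 23 NF-kB targets, 3 were higher (Icam1, Il6 and Lcn2) and 1 lower (Cxcl2), beside 1.84% and 0.435% of all genes. Of 16 YAP and TEAD targets, Ccn1 and Ccn2 were higher, beside the same 1.84%. In each list 1 of the higher genes, Il6 and Ccn2, reached 50 CPM only through EM1. Over tumour cells with no UMI of 5 fibroblast genes, which leaves out cells with Dcn, Il6 and Ccn1 fell short of 2-fold, with log2 ratios of 0.44 and 0.96. Icam1 and Ccn2 stayed past it there, at 1.53 and 1.51. Ccn1 stood at 1748 CPM in EM1, 1183 in E, 1127 in EM3, 802 in M, 361 in EM2 and 271 in the parental tumour.

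Against each tumour in turn, EM1 was furthest from E, and which tumour was nearest depended on the measure. Over 5822 genes the Spearman correlation of levels with EM1 was 0.919 for EM2, 0.915 for EM3, 0.911 for the parental tumour, 0.893 for M and 0.804 for E. The median absolute log2 ratio was 0.204 for EM3, 0.206 for the parental tumour, 0.209 for EM2, 0.256 for M and 0.345 for E. Against EM2, 94 of 5119 genes (1.84%) were higher in EM1 and 56 (1.09%) lower, led upward by Lbp, Bgn and Eln and downward by Cxcl2, Enpp1 and Cdk1. Against EM3, 125 of 5072 (2.46%) were higher and 56 (1.10%) lower, led by Cldn4, Mmp13 and Hspb1, and by Ggct, Lyz2 and Angpt1. Lyz2 is on the macrophage list, at 119.5 CPM in EM3 tumour cells and 16.8 in EM1. Only 33 EM3 tumour cells had no UMI of 9 macrophage genes, and the part of macrophage RNA in this difference was not tested. Against M, 133 of 5233 (2.54%) were higher and 68 (1.30%) lower, led by Cd74, Mmp13 and H2-Eb1, and by Csn3, Dennd2a and Gpnmb. With size factors by the median of ratios the M counts were 162 and 48.

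Against the parental tumour, from whose line the clone came, 134 of 5097 genes (2.63%) were higher and 59 (1.16%) lower. H2-Eb1, H2-Aa and H2-Ab1 led upward, with log2 ratios of 4.45, 4.14 and 4.07. Cxcl2, Itgb2 and Procr led downward, with -2.70, -2.44 and -2.22. Against E, 206 of 5378 (3.83%) were higher and 275 (5.11%) lower, and with size factors by the median of ratios 481 were higher and 169 lower, so the balance of directions against E depends on the scaling. Serpine2 (log2 ratio 5.64) and Sod3 (4.29) were among the 3 genes that led upward, and Lama3, Cdh1 and Aqp3 led downward.

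Principal components of 1000 variable genes over the thinned EM1 tumour cells each held under 2% of the variance. Component 1 (1.96% of variance) ran from Has2, Areg, Csf3, Odc1, Lif and S100a4, growth factor and cytokine genes among them, to Mgp, Dusp1, Jun, Fos, Thbs1 and Klf2, which include immediate early genes. Component 2 (1.45%) ran from Fn1, Arhgap42, Mmp13, Lcn2 and Clu to Atf3, Fosb, Fos, Ccnd1, S100a4 and Nr4a1. Component 3 (1.19%) set mitochondrial transcripts against Spp1, Cst3, Cxcl1, Mt2, Ier3 and Mt1, and had a Spearman correlation of 0.65 with the mitochondrial percent of UMIs and of -0.35 with depth, whose part was not tested. Component 4 (0.856%) had Bgn, Thbs1, Ccn1, Eln, Ets1 and Il6 at one end, which include genes found together in the Bgn cells.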

How the data were processed

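Tumours were dissociated with collagenase and hyaluronidase and red cells were lysed, per the labels' protocols, and single cells were measured on the 10x Genomics platform. The authors deposited, per library, a table of raw UMI counts per gene and cell (19369 genes) and a table of cell annotations that holds the mitochondrial percent of each cell as computed by the authors. Cell Ranger and build mm10 are named in the submitters' processing notes, without versions. The labels name both a fixed-RNA kit and 3′ reagents, so the chemistry, and with it whether counts come from probes, was not settled. Of the 12 libraries, the 6 Total libraries were analysed, and the 6 CD45-enriched ones served for barcodes alone.

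Doublets were scored per library with Scrublet in scanpy 1.11.5 (2 simulated pairs per cell, 6% expected, 2000 variable genes, 30 components). Cells above 1 score limit shared by all libraries, 0.2338, were called doublets. That limit is the median of the low points between the 2 peaks of simulated scores in each library. UMI counts of the tumour-annotated cells that remained were summed per tumour and scaled to CPM. Ratios used a pseudocount of 10 CPM, and genes needed 50 CPM in EM1 or in the median of the other 5, in any tumour, or in either tumour of a pair. Cells were thinned to 2000 UMIs for shares (1000 for shares across cell classes), and cells with fewer UMIs were left out. Spread was given for genes with a mean of at least 0.1 UMI. Intervals are exact Poisson for levels and Clopper-Pearson for shares.

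The members and the gene lists were chosen with earlier results of these data known, so a list's count is no independent support. Genes were named by a rule: the 15 with the largest ratio over the highest other tumour, Krt8, Krt18 and Serpine2, up to 4 members per list with the largest ratio, the 15 of largest spread, the 10 most abundant, the 6 leading genes at each end of the first 3 components, the 3 highest and 3 lowest against each tumour, and any epithelial or mesenchymal list member. Adamts4, Atp1b1, Dcn, Col1a1, C1qa, Apoe, Cd14, Jchain, Cd79a, Cd79b, Pi16, Csf3, Ciita, Ctss, H2-DMa, H2-Oa, H2-Ob, mt-Nd6, Mki67, the genes of component 4 and further list members past 2-fold were named after their values were seen, as were Bgn, Saa3 and class II cells chosen for closer description. The values of 4 genes are not reported here. Positions are from the GENCODE annotation of GRCm38.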

Additional observations from a re-analysis of the deposited data

How the results depend on the processing

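Each tumour was a lone sample, so no replicate could be left out and no difference tested. No paired analysis was possible because each group held 1 sample. A pseudocount of 50 CPM gave 52 higher and 3 lower genes against the median of the other 5 tumours, and 93 and 125 against E, 55 and 13 against EM2, 65 and 25 against EM3, 67 and 25 against M, and 64 and 29 against the parental tumour. A filter of 10 CPM and no filter gave the same counts as each other: 40 lower against the median, 2 below all 5 tumours, 566 lower against E, 150 higher and 96 lower against EM2, 200 and 102 against EM3, 203 and 115 against M, and 93 lower against the parental tumour. The mean in place of the median gave 40 lower, with log2 ratios of -0.11 for Cldn3, -0.84 for Cldn4 and -0.34 for Cldn7, which turned sign. Without Clone E among the comparators 30 genes lay above all others, and size factors by the median of ratios gave 481 higher and 169 lower against E. Tumour cells without macrophage UMIs, chosen after seeing the data, gave 200 higher and 90 lower against EM3, of which 33 cells were left. Of the 18 genes above all other tumours, 18 remained with a pseudocount of 1 CPM, 12 with one of 50 CPM, 14 in cells without macrophage UMIs and 15 in cells without fibroblast UMIs. In cells with a barcode of no other library, and in cells without B and plasma cell UMIs, both chosen after seeing the data, all 18 remained. Of 210 values of such counts of genes, the 38 given here moved by more than 1.5 times. Of 1292 values of list counts 120 moved by as much, in 36 of 76 such counts. Of 60 coefficients of variation 12 moved by more than 10%, and of 4726 log2 ratios 2115 moved beyond counting error. Of 1955 log2 ratios of 115 called genes under the alternatives, 1952 kept their direction. Depth limits low genes: 3 counts make 0.112 CPM in EM1 and 0.597 CPM in E, the shallowest tumour with 751 tumour cells.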

Other observations

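Of 22 receptor tyrosine kinase and ligand genes at 50 CPM or more, 3 were at least 2-fold higher in EM1 than the median of the other tumours (Fgfr1, Pdgfrb and Pdgfb) and none was lower, beside 1.84% and 0.435% of all genes. All 3 reached 50 CPM only through EM1, so they had to lie above that median. Pdgfb, a platelet-derived growth factor chain, stood at 97.9 CPM in EM1, 104 in E and 1.82 (EM3) to 52.9 (parental) elsewhere. Fgfr1, a fibroblast growth factor receptor, stood at 117 CPM in EM1, 86.3 in M, 81.3 in EM2, 26.3 in the parental tumour, 24.7 in E and 0.665 in EM3. Icam1, the adhesion ligand of leukocyte integrins, stood at 205 CPM in EM1 and 54.5 to 110.2 elsewhere, the only 1 of 12 immune regulators past 2-fold, beside 1.84% of all genes higher and 0.435% lower.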
